A study of Homo sapiens with 8 samples.

Results

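Of 9 genes that are recurrently mutated in acute myeloid leukemia (AML), 4 had a promoter-labelled PML::RARA peak in induced U937-PR9 cells, where the symbol of 30.0% of all protein-coding genes labelled a peak. These were CBL, ASXL1, BCOR and PHF6, with 6 labelled peaks in all. The list held no row for NPM1, FLT3, KIT, PTPN11 and NRAS. The 9 genes were chosen with earlier results of these data known. Their peaks were taken as every row of the peak list with any of these symbols. Rows without a symbol were added where their centre lay within 50 kb of the centre of such a row. This added 11 peaks, all of them around BCOR, so 17 of the 15412 peaks belonged to these genes.

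Cut&Run releases DNA around an antibody-bound protein in isolated nuclei by a tethered nuclease, and the released fragments are sequenced. The U937-PR9 line was derived from monocytic U937 cells and carries PML::RARA under a zinc-inducible promoter. Induced cells received 100 µM ZnSO4 and uninduced cells sterile water, both for 5 h. Each condition was profiled with an anti-PML-RARA and an anti-RARA antibody in 2 replicates, 8 libraries in all. All libraries are of this 1 line, and zinc-treated cells without the transgene are not among them, so effects of zinc itself and of the fusion cannot be told apart. The values below come from the reproducible peaks of the 2 induced anti-PML-RARA libraries. The peaks of uninduced cells and of the anti-RARA antibody were not analysed here. For each peak there is 1 set of values for both replicates, so replicate error is not known and no test was run. The sequencing depth is unknown. Peak height is the largest signal in a peak, and total signal is the sum over its width. In the whole list, height ran from 13 to 87 with a median of 25, and the median width was 829.5 bp (77 to 7313 bp).

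The genes fall into 3 groups by function. FLT3 and KIT are receptor tyrosine kinases of blood progenitors. CBL is the ubiquitin ligase that marks such receptors for degradation, PTPN11 encodes the phosphatase SHP2 that passes their signal on, and NRAS is a small GTPase further along the same route. ASXL1, BCOR and PHF6 act on chromatin. ASXL1 is a cofactor of the histone H2A deubiquitinase BAP1, BCOR is a corepressor in a variant Polycomb complex, and PHF6 is a zinc finger protein of the nucleus and nucleolus. NPM1 is a nucleolar chaperone. Acute promyelocytic leukemia (APL), the disease that PML::RARA drives, often carries FLT3 mutations beside the fusion, whereas NPM1 mutations belong to other forms of AML.

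The genomic sequence at the apex of 8 peaks described here is printed below. Those at NPM1 and KIT are not among the 17 peaks counted above. An apex is the midpoint of the interval of largest signal. Each line gives up to 75 bases on either side of the apex on the plus strand of hg19, cut short where an annotated UTR begins. Capitals mark an ETS-type site, searched as AGGAAGT or GGGAAGT, or the hexamer of retinoic acid response elements (RARE), searched as the letters AGGTCA, the letters GGGTCA, the letters AGTTCA and the letters GGTTCA. Both strands were searched, so a capital run can be the reverse complement. No line is given for PHF6, whose apex lay in a UTR. BCOR is on the minus strand, and the other genes shown are on the plus strand.
ASXL1 labelled peak (chr20:30945964-30946114): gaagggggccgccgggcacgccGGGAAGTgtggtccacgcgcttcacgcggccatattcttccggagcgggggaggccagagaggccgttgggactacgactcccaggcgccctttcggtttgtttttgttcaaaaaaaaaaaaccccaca
CBL labelled peak (chr11:119077647-119077797): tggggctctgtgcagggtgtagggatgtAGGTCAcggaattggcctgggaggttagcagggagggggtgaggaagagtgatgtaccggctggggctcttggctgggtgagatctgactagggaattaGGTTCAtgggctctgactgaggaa
BCOR labelled peak at the canonical start site (chrX:39957773-39957923): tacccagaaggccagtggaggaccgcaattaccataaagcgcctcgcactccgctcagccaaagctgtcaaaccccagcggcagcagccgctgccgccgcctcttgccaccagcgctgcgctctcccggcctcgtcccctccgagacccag
BCOR labelled peak, widest (chrX:40033544-40033694): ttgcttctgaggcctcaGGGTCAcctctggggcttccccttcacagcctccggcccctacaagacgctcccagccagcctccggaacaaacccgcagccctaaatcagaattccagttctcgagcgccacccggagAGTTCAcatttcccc
BCOR labelled peak, outermost (chrX:40038575-40038725): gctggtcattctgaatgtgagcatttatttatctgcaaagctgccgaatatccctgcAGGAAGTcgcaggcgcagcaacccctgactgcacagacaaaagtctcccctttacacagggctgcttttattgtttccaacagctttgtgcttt
BCOR unlabelled peak, highest (chrX:39986496-39986646): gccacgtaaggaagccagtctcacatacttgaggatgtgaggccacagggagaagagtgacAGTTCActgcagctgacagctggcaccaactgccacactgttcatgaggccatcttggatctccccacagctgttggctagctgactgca
NPM1 start site, peak labelled MIR3912 (chr5:170814570-170814698): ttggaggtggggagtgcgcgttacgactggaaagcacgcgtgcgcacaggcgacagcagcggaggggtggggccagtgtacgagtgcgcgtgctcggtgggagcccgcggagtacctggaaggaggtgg
KIT, peak beyond its 3′ end (chr4:55612534-55612684): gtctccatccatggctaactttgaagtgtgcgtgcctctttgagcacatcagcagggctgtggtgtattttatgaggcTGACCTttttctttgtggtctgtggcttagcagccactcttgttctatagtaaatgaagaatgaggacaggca

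ASXL1 had the highest labelled peak of the 9 genes. It lay at chr20:30945307-30947389, and its apex was 94 bp upstream of the nearest ASXL1 start site (ENSG00000171456, plus strand, chr20:30946133-31027122). Its height of 39 ranked 2104th of 15412, a height that 209 peaks shared, and exceeded 85.0% of the list. Its width of 2083 bp ranked 905th and exceeded 94.1%, and its total signal of 17326 exceeded 85.6%. Wide peaks tend to be high, so each height was also set against the peaks within 10% of the same width. Among the 704 peaks of like width, the ASXL1 peak was above 61.2%, so its height was ordinary for its width. The sequence at this apex carries 1 ETS-type site, 53 bp to the left of the apex, in a window whose GC content was 66.1%. No other peak of the list lay over ASXL1.

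CBL had 1 labelled peak, at chr11:119076485-119078096 (ENSG00000110395, plus strand, chr11:119077008-119184636). Its apex lay in intron 1, 588 bp downstream of the nearest CBL start site. For comparison, 87.3% of the 6982 labelled peaks whose symbol could be placed had an apex nearer than that to a start site of their own gene. The height of 26 ranked 6677th and exceeded 53.1% of the peaks, near the middle of the list. The width of 1612 bp ranked 2051st and exceeded 86.7%. Around this apex there were 3 RARE hexamers and 1 ETS-type site within 200 bp, more hexamers than at any other of the 6 labelled peaks. With a GC content of 55.1% and a CpG ratio (observed to expected) of 0.467, the apex window of CBL was poorer in CpG than the median labelled peak, at 64.3% and 0.808.

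PHF6 had the lowest of these 4 genes' highest peaks. The peak at chrX:133506911-133507760 reached a height of 20, which ranked 10691st and exceeded 25.5% of the list (ENSG00000156531, plus strand, chrX:133507318-133562821). Its width of 850 bp ranked 7469th, close to the median. The apex lay in exon 1, inside the UTR, 2 bp from an annotated start site. Of the labelled peaks of these 4 genes, this one was placed most exactly on a start site although it was among the lowest. Within 200 bp of the apex, neither an ETS-type site nor a RARE hexamer was found, and the CCAAT box occurred 2 times. Peaks of chromosome X had a median height of 23 (325 peaks), against 25 on the autosomes, and the PHF6 peak exceeded 26.8% of those on X.

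BCOR differed from the other 8 genes by the number of its peaks. The list held 12 peaks over the gene (ENSG00000183337, minus strand, chrX:39909068-40036582), of which 10 had no label, and another labelled peak stood just outside it. Some of the 12 had an apex nearer to a start site of another annotated gene, ENSG00000288856, and were counted here by overlap alone. The other 8 genes had at most 1 peak over the gene each. Of 20090 protein-coding genes, 13 others had 12 or more, and all 13 were longer than BCOR. Among the 1554 genes that differed from BCOR in length by a factor of at most 1.25 the median was 1 peak and the highest count was 10. The 3659 genes of 100 kb or more included none other with as many peaks per 100 kb as BCOR, at 9.41. This rank depended on how neighbouring peaks were counted. After merging of peaks less than 1 kb apart, a setting chosen after seeing the data, 7 peaks were left over BCOR, 64 other genes had as many, 13 of them of like length, and 7 genes of 100 kb or more were at least as dense.

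**Figure D1:**
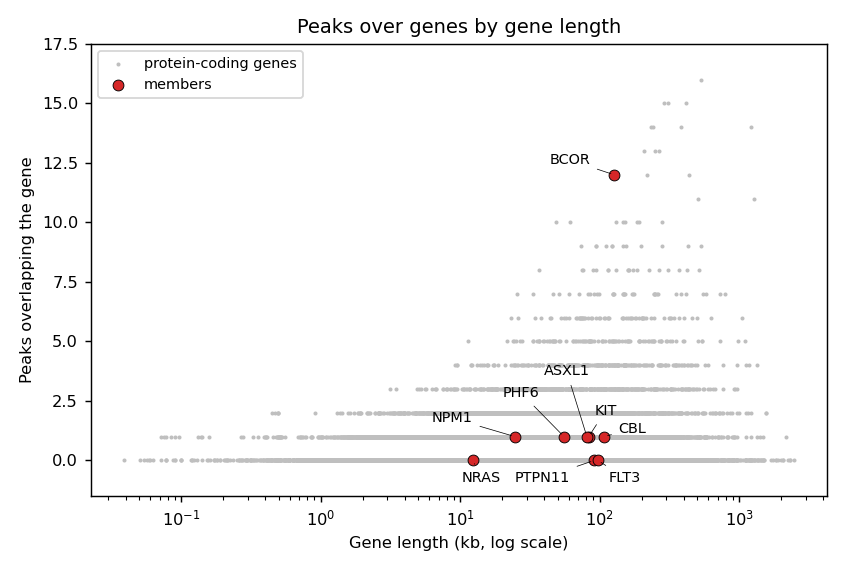
Number of peaks overlapping each of 20090 protein-coding genes (vertical axis) against gene length in kb (horizontal axis, log scale), with the 9 genes in red. BCOR stands at 12 peaks, above every gene of like length, and the other 8 genes stand at 0 or 1.

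Of the 3 labelled BCOR peaks, 2 were wide, and both were low for their width. The peak at chrX:39955685-39958791 covered the canonical start site and had its apex 637 bp upstream of it, or 139 bp upstream of the nearest BCOR start site. Its width of 3107 bp ranked 187th of 15412 and exceeded 98.8%, whereas its height of 19 ranked 11488th and exceeded 19.5%. No peak within 10% of its width, 168 in all, was lower. The end of its interval of largest signal is missing in the list, as in 33 other peaks, so the apex is the start of that interval.

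The second labelled peak, at chrX:40033112-40036656, covered the outermost BCOR start sites, 79371 bp upstream of the canonical one. It was the widest of the 17 peaks at 3545 bp (rank 103, above 99.3%), with a height of 27 (rank 6155, above 56.7%). Its total signal of 34346 ranked 324th and exceeded 97.9% of the list. Its apex lay 2847 bp downstream of the nearest BCOR start site. Of the labelled peaks, 98.9% had their apex nearer to an own start site. A start site of another annotated gene, ENSG00000288856, was nearer to this apex, at 2422 bp. Of the 224 peaks of 3 kb or more, which had a median height of 39, 3 were as low as 19 or lower and 36 as low as 27 or lower. Both wide BCOR peaks were therefore below the median height of their width class. The third labelled peak, chrX:40038290-40038968, was ordinary in both measures, with 679 bp in width (rank 9496, above 38.3%) and 21 in height (rank 9879, above 30.6%). Its apex lay 2068 bp upstream of the outermost start site.

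**Figure D2:**
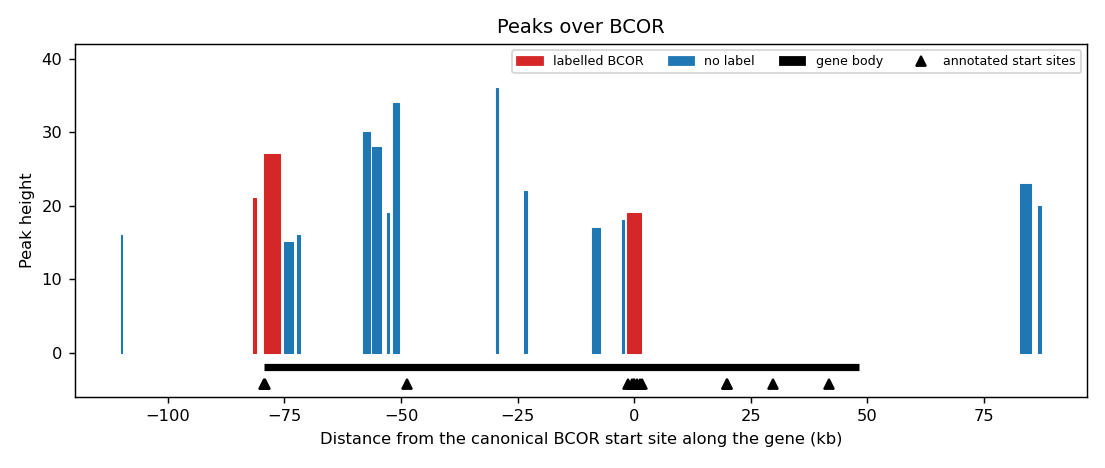
Peaks over and around BCOR, by distance in kb from its canonical start site along the gene (horizontal axis) and height (vertical axis), each bar as wide as its peak. Labelled peaks are red, unlabelled peaks blue, the gene body black and annotated start sites triangles. The 12 peaks over the gene lie upstream of or at the canonical start site, and the 3′ part of the gene holds none.

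Between the canonical and the outermost start sites, the unlabelled peaks formed small groups in introns of the longer BCOR transcripts. The highest was the narrow peak at chrX:39986327-39986774. Its height of 36 ranked 2815th and exceeded 80.0% of all peaks, and 94.3% of the 1188 peaks of like width. Its width of 448 bp exceeded only 17.2%. Its mean signal per base of 14.7 exceeded 91.5% of the list, and no other peak at these genes exceeded it. It also was the poorest in CpG of all peaks described here, with a ratio of 0.0426 and a GC content of 48.4%.

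A group of 4 unlabelled peaks lay further upstream, from chrX:40007582 to chrX:40015344, near a BCOR start site at 40005882. Their heights were 34, 19, 28 and 30 and their widths 1373, 329, 1938 and 1488 bp. This group held 3 of the 4 unlabelled peaks at or above the median height. Next to the widest labelled peak stood 2 low peaks. The peak at chrX:40030322-40032259 had a height of 15, and only 0.0324% of all peaks were lower, although its width of 1938 bp exceeded 92.3%. Its apex lay 24 bp from a start site of ENSG00000288856, another annotated gene, so this peak need not belong to BCOR. The peak at chrX:40028897-40029595 had a height of 16.

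Nearer to the canonical start site were the peaks at chrX:39959353-39959862, with a height of 18, at chrX:39964512-39966334, with 17, and at chrX:39980216-39980846, with 22. Only the second of these was wide, at 1823 bp. The last of the 11 unlabelled peaks, at chrX:40067032-40067238, stood outside the gene with a height of 16 and the smallest width, 207 bp. Over BCOR as a whole, 5 of the 12 peaks reached the median height of the list and 7 its median width. Together they covered 17755 bp, or 13.9% of the gene, and carried 4.78% of the total signal on chromosome X, where they made up 3.69% of the peaks. The 46.6 kb at the 3′ end of BCOR held no peak. By the 50 kb rule, the farthest peak counted was 29.3 kb from a labelled one, and the nearest left out (chrX:39872093-39874487, height 23, width 2395 bp) was 83.9 kb away.

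NPM1 had no peak under its own symbol, but a peak lay on its start site. This peak, at chr5:170814230-170814919, carried the label MIR3912, a microRNA gene just upstream of NPM1 on the other strand. Its apex was 54 bp upstream of an annotated NPM1 start site and 208 bp upstream of the canonical one (ENSG00000181163, plus strand, chr5:170814120-170838814). Its height of 36 ranked 2815th and exceeded 80.0% of the peaks. With a width of 690 bp, above 39.2%, it was narrow for that height and exceeded 87.1% of the 1763 peaks of like width. Its signal per base of 13.1 exceeded 85.8% of the list. Counted by the start site and not by the label, NPM1 thus held the second highest promoter peak of the 9 genes, after ASXL1. In the list, 106 peaks carried the symbol of a microRNA gene, and 65 of these had their apex within 1 kb of a start site of a protein-coding gene.

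**Figure D3:**
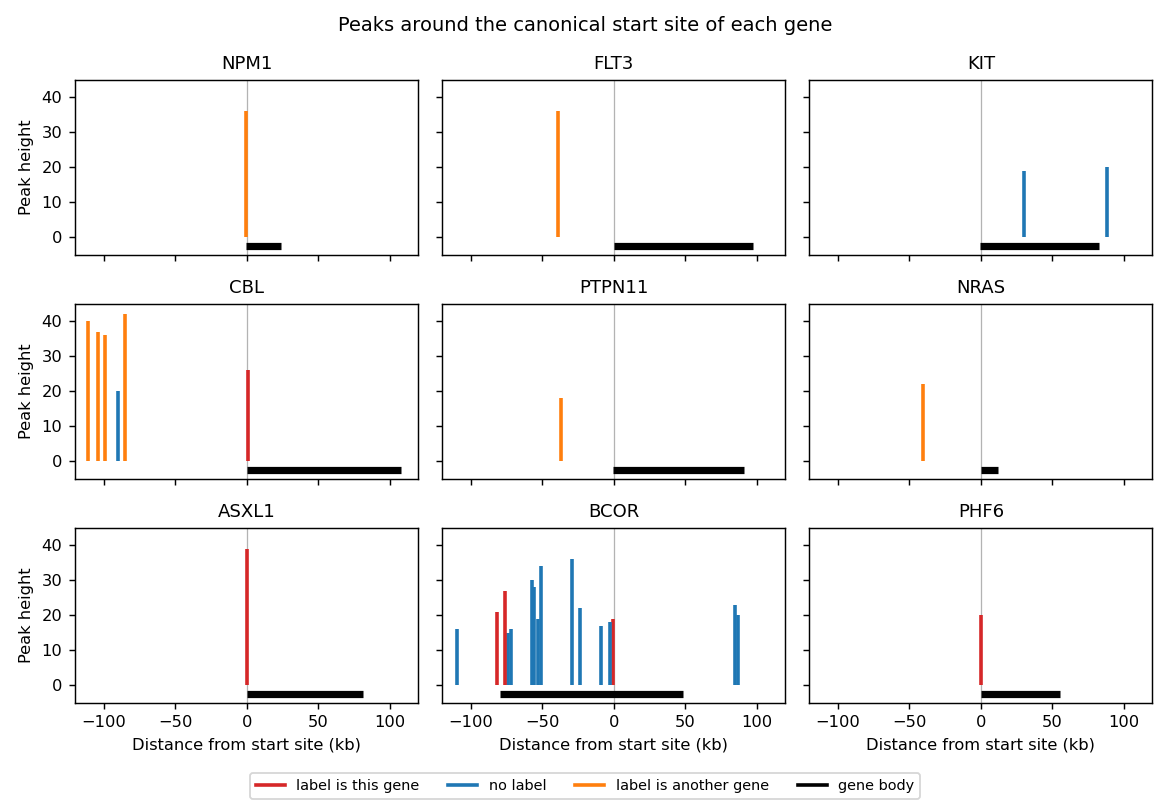
Peaks within 120 kb of the canonical start site of each of the 9 genes, by distance in kb in the direction of transcription (horizontal axis) and height (vertical axis). Lines are red where the label is the gene itself, orange where it is another gene and blue where there is none, and the black bar is the gene body. NPM1 has an orange line at its start site, and KIT, FLT3, PTPN11 and NRAS have no line within 25 kb.

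KIT, FLT3, PTPN11 and NRAS, all of the receptor to RAS route, had no peak at a start site. For KIT (ENSG00000157404, plus strand, chr4:55523434-55606949), 2 unlabelled peaks lay in or beside the gene. The peak in intron 1, at chr4:55553857-55554554, reached 19, and its apex was 30194 bp downstream of the canonical start site. Its signal per base of 5.18 exceeded only 2.74% of the list. The peak beyond the 3′ end, at chr4:55612451-55612801, reached 20 over 351 bp, and a RARE hexamer began 3 bp to the right of its apex. The intron 1 peak held 2 such hexamers within 200 bp of its apex, and 63.7% of all unlabelled peaks held at least 1. Both KIT peaks were below the median in height and in width.

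FLT3, PTPN11 and NRAS had no peak over the gene at all. The nearest apex to the canonical FLT3 start site (ENSG00000122025, minus strand, chr13:28577411-28674729) was 38716 bp upstream, in a peak labelled PAN3-AS1 whose height was 36 and whose width was 2335 bp. For PTPN11 (ENSG00000179295, plus strand, chr12:112856155-112947722) it was 36574 bp upstream, in a peak labelled HECTD4 with a height of 18. NRAS (ENSG00000213281, minus strand, chr1:115247090-115259392) likewise had no apex within 25 kb of its canonical start site. Such distances were common. Of the 19812 protein-coding genes with a canonical start site, 47.3% had no apex within 25 kb. A gene without a peak had no reproducible peak at the authors' threshold, which does not show that PML::RARA was absent there.

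The 4 genes with a labelled peak made up 44.4% of the 9 (Wilson 95% interval 18.9 to 73.3%, for the counting of genes only). Over all 20090 protein-coding genes, the symbol of 30.0% labelled a peak. With an apex within 1 kb of an own start site as the criterion, NPM1 was added, and 5 of the 9 genes compared with 39.3% of all. At least 1 peak lay over 6 of the 9 genes, against 45.1% of all. The 9 genes are few and were chosen with earlier results of these data known, so the interval gives no verdict on a difference. The 6 labelled peaks had a median height of 23.5 and a median width of 1847.5 bp, whereas all 7169 labelled peaks had medians of 26 and 1108 bp. The heights ran from 19 to 39 and the widths from 679 to 3545 bp. BCOR gave 3 of these 6 peaks. With only the highest labelled peak of each gene, the median height was 26.5 for the 4 genes and 27 for all protein-coding genes with a label.

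**Figure D4:**
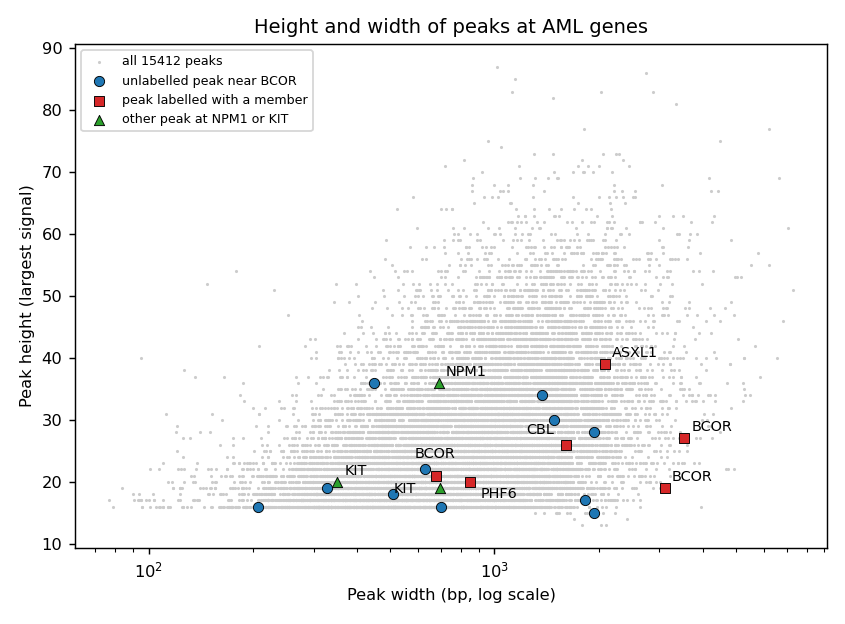
Height (vertical axis) against width in bp (horizontal axis, log scale) of all 15412 peaks in grey, with the 6 labelled peaks in red, the 11 unlabelled peaks around BCOR in blue and the other peaks at NPM1 and KIT in green. The 2 wide BCOR peaks lie at the lower right, at heights of 19 and 27, and the NPM1 peak is narrower and higher, at 36.

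Sequence motifs were compared with all peaks in windows of 200 bp on either side of the apex. ETS proteins include PU.1, the myeloid regulator encoded by SPI1, and RARE hexamers are the units that retinoic acid receptors bind. An ETS-type site was found in 3 of the 6 labelled peaks, those of ASXL1, CBL and the outermost BCOR peak, against 22.3% of all labelled peaks. With windows around the peak centre in place of the apex, it was found in 1 of the 6. A RARE hexamer was found in 3 of 6, against 45.6%, and these were at CBL and at 2 BCOR peaks. No direct repeat of hexamers at a spacing of 1, 2 or 5 bases occurred in any of the 17 peaks, and such repeats were rare in the list, at 0.363%, 0.195% and 0.0976% of all labelled peaks. A GC box (GGGCGG) was found in 4 of 6, against 76.2%, and a RUNX site (TGTGGT or TGCGGT) in 3 of 6, against 28.0%.

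Among the 11 unlabelled peaks around BCOR, 3 held an ETS-type site and 5 a RARE hexamer. The shares over all unlabelled peaks were 40.5% and 63.7%. Neither the AP-1 site (TGAGTCA or TGACTCA) nor the E-box (CACGTG) was found in any of the 17 peaks, where 14.4% and 10.8% of all peaks held one. The BCOR neighbours were mixed in base composition. The CpG ratio was 0.0426 to 0.405 in 5 of them and 0.620 to 1.12 in the other 6. Their median GC content was 60.8% and their median CpG ratio 0.620, between the medians of unlabelled peaks (52.9% and 0.257) and of labelled peaks (64.3% and 0.808). The neighbour with the most hexamers, at chrX:40013857-40015344, held 3, of which AGGTCA lay 21 bp to the left of its apex. These counts are few and describe the windows only.

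The 4 lists of related genes were read in the same way, beside the 30.0% of all protein-coding genes. Of 30 other genes mutated in AML, 17 labelled a peak (56.7%), with a median of 25 for the highest peak of each gene. All protein-coding genes with a label had a median of 27. RUNX1, a myeloid transcription factor, had the highest at 74, followed by the helicase gene DDX41 at 54 and the chromatin remodeller gene ARID1A at 35. By an apex within 1 kb of a start site the number was 22, a criterion that 39.3% of all protein-coding genes met. The 5 genes this added, named after their values were seen, were NF1, KMT2A, SRSF2, RAD21 and ARID1B, each with a peak that carried another label or none.

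Of 28 genes of the route from receptors to RAS and RAF, 17 labelled a peak (60.7%), with a median of 24. The highest were SHC1, an adaptor of activated receptors, at 53, RASA1, which switches RAS off, at 40, and SPRED2, an inhibitor of the route, at 37. HRAS, a paralog of NRAS, had a labelled peak of height 17, whereas NRAS had none. CBLB, a paralog of CBL, had 1 of height 21. FLT3LG, which encodes the ligand of FLT3, had a labelled peak of height 18, and KITLG, which encodes that of KIT, had none. These 4 genes and BRAF, which had none, were singled out after their values were seen.

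Of 23 partners of ASXL1, BCOR and PHF6, 19 labelled a peak (82.6%), and the exceptions were ASXL3, KDM1B, RING1 and RBBP4. Of these, KDM1B and RBBP4 had an apex 55 and 10 bp from a start site of their own, in a peak without their symbol. The median of their highest peaks was 31, the largest of the 4 lists. KDM2B, which brings the BCOR complex to CpG islands, had the highest at 43. UBTF, a factor of ribosomal RNA transcription, followed at 37 in a peak of 3470 bp, and BAP1, the enzyme that ASXL1 activates, at 36. Of 14 partners of NPM1 and nucleolar proteins, 10 labelled a peak (71.4%), with a median of 28. NPM2, NPM3, NOP56 and NOP58 labelled none, although an apex lay 176 bp from a start site of NOP56. CTCF and XPO1, the nuclear exporter, both reached 52, and DKC1, a pseudouridine synthase subunit, 36.

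**Figure D5:**
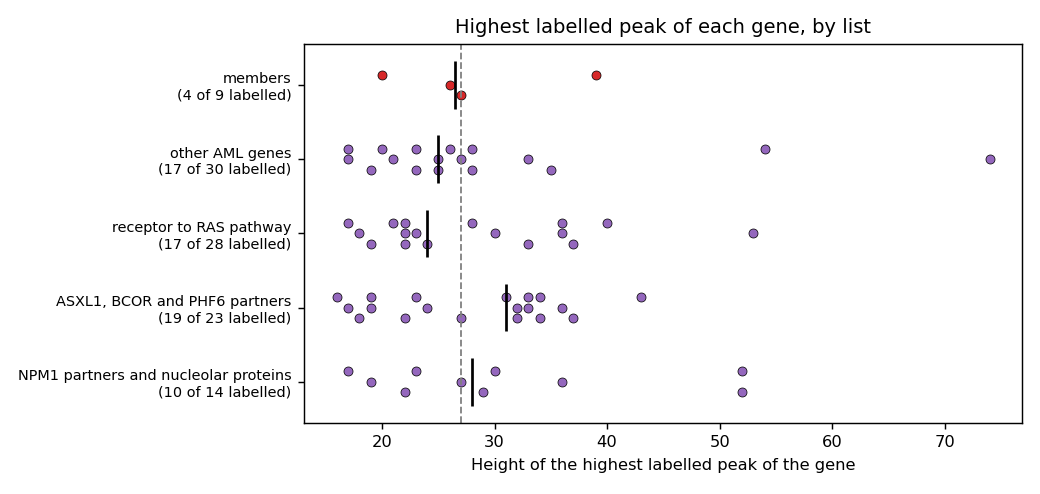
Height of the highest labelled peak of each gene (horizontal axis) for the 9 genes and the 4 lists, 1 point per gene with a label. Black bars are medians and the dashed line is the median over all protein-coding genes, 27. The 4 labelled members lie from 20 to 39, within the range of the other lists.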

How the data were processed

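Reads had been trimmed (Trimmomatic) and aligned to hg19 (Bowtie2) by the authors, who also removed PCR duplicates and blacklisted reads. They called peaks with SEACR against paired controls and kept those at an IDR below 0.05 across 2 replicates. For each peak the authors deposited a total signal and a score, which by its values is the largest signal in the peak (the height). Both are whole numbers, and no normalization is stated. Depth is unknown. Symbols had been assigned by the authors from UCSC known genes of hg19. Genes and start sites were taken from GENCODE release 44 on GRCh37, the same build, and sequences from that genome. Ranks count the peaks above a value plus 1, and percentages those below it. The list used here gives no values per replicate, so no test was fitted. The 9 genes and the lists were chosen with earlier results of these data known. Named from each list were the 3 highest genes and, where 5 or fewer, those without a label. Functions were tested on simulated data. Python 3.11.15 was used, with pandas 2.3.3 and numpy 2.4.6 for tables, pysam 0.24.0 for sequences, scipy 1.17.1 for intervals and matplotlib 3.10.9 for figures. Some values of neighbouring and related genes are not reported here.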

Additional observations from a re-analysis of the deposited data

How the results depend on the processing

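The list has 1 set of values per peak, so no replicate could be left out. No paired analysis was possible because replicates share their values. The number of the 9 genes with a labelled peak was 3 to 5 under 4 alternatives. The number of labelled peaks stayed at 6 after merging, and the number of unlabelled neighbours was 8 to 14 under 4 other distance rules. For each of the 6 labelled peaks the share of the list lower than it was taken, and the median of these 6 shares was 41.9%. It became 36.8% among labelled peaks, 54.9% for the highest peak per gene and 44.1% with each tie given equal weight above and below. By total signal it was 80.5% and by signal per base 35.7%, since total signal grows with width. The median of the same shares for width was 90.4% over the list, 84.2% among labelled peaks and 86.9% among merged peaks. The count of other AML genes was 10 when only peaks of at least the median height counted, fewer by construction. The ETS-type site was found in 1 of the 6 labelled peaks around the peak centre in place of the apex. Under alternatives chosen after seeing the data, BCOR had 7 peaks after merging and 5 at or above the median height. The height of a peak cannot be given an error at this unknown depth.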
